A study of Mus musculus with 4 samples.

Results

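The comparison described here sets the R3 population of mouse fetal liver erythroblasts against the R2 population that precedes it, gene by gene. Its members were the genes at 10 RPKM or more in R2 or in R3 that lay outside the globin, heme and granulocyte lists, 5464 of the 19564 gene symbols measured. RPKM corrects a gene's read count for its length and for library size. Of these genes, 2945 reached 10 RPKM in both libraries, 2343 in R2 only and 176 in R3 only, and 91 further genes at that level were left out as globin, heme or granulocyte genes. At the edge of the rule, Epc1 in R2 and 2410129H14Rik in R3 (both at 10 RPKM) were just inside, and Mettl14 and 1110031I02Rik (both 9.99 in R2) were just outside.

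Livers of embryonic day 14.5 mice were stained for TER119, an erythroid antigen, and for CD71, the transferrin receptor, and sorted without culture. By the series' description R2 holds proerythroblasts and early basophilic erythroblasts, and R3 early and late basophilic erythroblasts. The more mature R4 and R5 populations are used for the levels that followed and for choosing the genes behind the median scaling. All 4 groups came from this tissue with no treatment named in the labels. Strain, genotype and the number of embryos pooled do not appear in these sources. Each population gave 1 library, so the differences below have no replicates behind them and carry no p-value.

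Between these stages an erythroblast passes from growth driven by stem cell factor and erythropoietin into terminal differentiation. Kit and MYC drive the expansion of progenitors and the making of ribosomes. GATA1, TAL1 and KLF1 turn on the genes of the red cell membrane, of heme and of globin, while the cell goes through its last, rapid divisions and its chromatin begins to condense.

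Genes behind the sort and the stage differed between R2 and R3 in transcript level, while the sort itself used stained surface protein. Tfrc, which encodes CD71, was at 52.1, 133, 74.4 and 32.8 RPKM across R2, R3, R4 and R5. Kit, the receptor for stem cell factor, was at 46.1 RPKM in R2 and 4.2 in R3, and the progenitor factor Gata2 at 19.0 and 1.61. R2 was thus the high library for Kit and Gata2 and the low one of this pair for Tfrc.

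Globin transcripts took 5.52% of the summed RPKM in R2 and 59.4% in R3, which lowers the RPKM of every other gene in R3. Ratios are therefore given on the log2(RPKM + 1) scale as deposited, which understates the change of low genes. They were also taken after each library was scaled by the median of its gene ratios (over 2745 genes at 5 RPKM or more in all 4 libraries) and after globin genes were removed and the rest rescaled. The log2 ratio of the median member was -1.22 as deposited. Median scaling put it at -0.38, and removal of globins at -0.49. As deposited, 274 members (5.01%) passed 2-fold in the higher direction and 3295 (60.3%) in the lower, so that 7.68% of calls were higher and 92.3% lower. Median scaling gave 606 higher (11.1%) and 1257 lower (23.0%), or 32.5% and 67.5% of its calls. Removal of globins gave 558 (10.2%) and 1470 (26.9%), or 27.5% and 72.5%. Below, a gene is called higher or lower only where it passed 2-fold in the same direction under all 3 scalings, which held for 274 members in the higher direction (5.01%) and 1257 in the lower one (23.0%). With a pseudocount of 5 RPKM in place of 1 the latter count was 528. At 4-fold these counts were 91 and 133, and at 8-fold 27 and 4, the 4 being Gapdh, Rpl23a, Rps12 and Snord34, each backed by under 30 estimated reads.

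**Figure D1:**
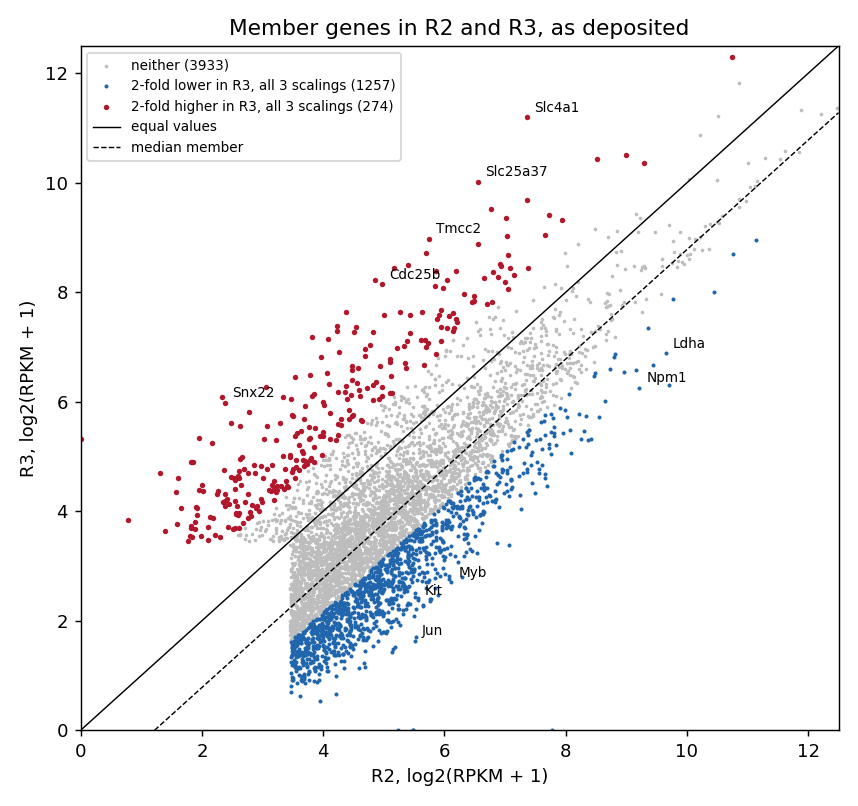
Each point is 1 member gene, placed by its log2(RPKM + 1) in R2 (x axis) and R3 (y axis) as deposited, with red for the 274 genes at least 2-fold higher in R3 under all 3 scalings, blue for the 1257 lower ones and grey for the others. Most points lie under the solid line of equal values, around the dashed line of the median member at a log2 ratio of -1.22, while Slc4a1, Slc25a37 and Tmcc2 lie far above both.

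The values imply about 23000000 reads in R2 and 25600000 in R3, so 10 RPKM over 1 kb stood for 230 reads in R2 and 256 in R3. These depths are estimates, and 35 members were backed by under 30 reads in both libraries. Such genes stay in the counts and are not among the leading genes named.

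Markers of other blood cells moved with the comparison. Of 92 measured granulocyte genes, 61 reached 10 RPKM in R2 or R3. All 61 were at least 2-fold lower in R3 as deposited and with globins removed, and 60 with median scaling. Among all members, which leave these genes out, the shares lower were 60.3%, 26.9% and 23.0% under those scalings. Their summed level was 10412, 835, 474 and 889 RPKM across R2, R3, R4 and R5, and only Ear10 and AA467197 were listed at 0 in both R2 and R3. Myeloperoxidase transcripts (Mpo) fell from 1966 RPKM to 95.2. Mast cell and basophil genes summed to 84.4 RPKM in R2 and 5.52 in R3 (10 genes, Tpsab1 at 0 in both), and lymphoid genes to 46.1 and 6.73 (15 genes, Cd3e at 0 in both). Sums of macrophage genes were closer, at 155 and 102 RPKM (21 genes, Vsig4 at 0 in both), as were those of megakaryocyte genes, at 72.5 and 55.6 (16 genes, none at 0). As shares of the sum without globins both were higher in R3, macrophage genes at 0.0412% and 0.0464% and megakaryocyte genes at 0.0192% and 0.0253%. Hepatocyte genes were higher on both scales, with 419 RPKM in R2 and 700 in R3 over 16 genes, none at 0. Of the 11 at 10 RPKM or more, 10 were called higher, against 5.01% of all members. Alb, which encodes albumin, was at 64.8 and 161 RPKM and Afp at 50.1 and 138. Apoe, the other of the 11, was lower in R3, at 160 and 72.5, and was not called. The part of these other cells in the differences below was not tested, and fewer cells of a type and less RNA per cell cannot be told apart in sorted bulk samples.

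**Figure D2:**
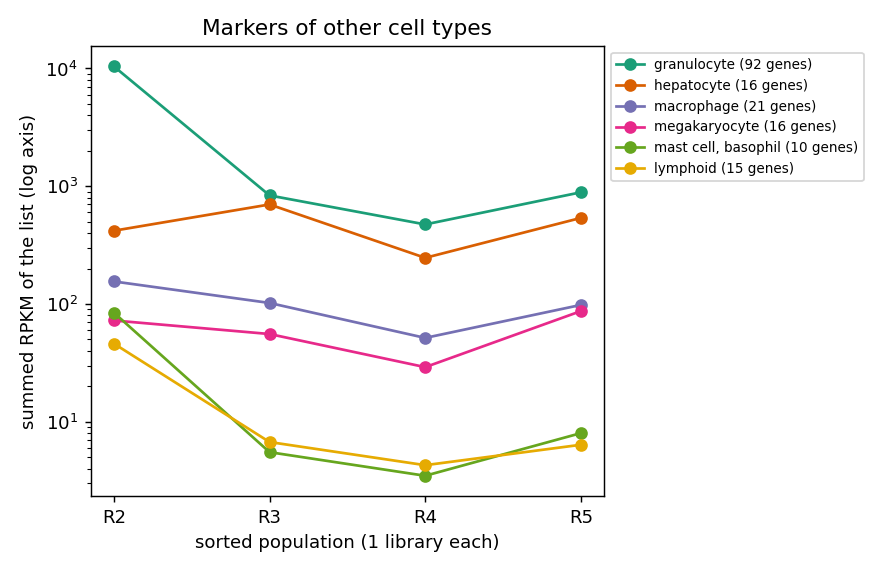
Points give the summed RPKM of each list of marker genes (y axis, log scale) in each sorted population (x axis, 1 library each), with lines joining the libraries of a list. The granulocyte sum drops from 10412 RPKM in R2 to 835 in R3, whereas the hepatocyte sum is 419 in R2 and 700 in R3.

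Genes of the red cell surface and its transporters were often higher in R3. Of 37 such members, 19 were called higher and 3 lower, against 5.01% and 23.0% of all members. Their median log2 ratio was 1.02 as deposited and 1.87 with median scaling, against -1.22 and -0.38 for all members. Of 18 members of the membrane skeleton list, 9 were called higher and 1 lower, with medians of 1.14 and 1.98. The anion exchanger band 3 (Slc4a1) had the highest ratio of all members that were called and backed by enough reads, 3.83, with 164, 2342, 2667 and 1734 RPKM across R2, R3, R4 and R5.

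The spectrin network differed member by member. Alpha spectrin (Spna1) was at 15.8 RPKM in R2 and 90.7 in R3, and beta spectrin (Spnb1) at 56.7 and 277. Ankyrin (Ank1), which ties spectrin to band 3, was at 88.3 and 230, and protein 4.2 (Epb4.2), which binds both, at 15.9 and 141. Each of these was called higher, with Epb4.2 at a log2 ratio of 3.07 and Ank1 at 1.37. Dematin (Epb4.9), which bundles the short actin filaments at the network's junctions, was at 41.04 and 358, protein 4.1 (Epb4.1) at 57.7 and 181, and the filament cap tropomodulin 1 (Tmod1) at 12.8 and 89.3. The adducins Add1 and Add2 had log2 ratios of 0.79 and 0.46 as deposited and were not called, although they passed 2-fold with median scaling (1.65 and 1.33). Tmod3 (10.2 and 4.37 RPKM), Tpm3 (66.4 and 19.96) and Actb (1852 and 828), which are also widely used outside red cells, were not called. The called lower member, gamma actin (Actg1), had 836 and 78.1 RPKM, which stood for 96 reads in R2 and 10 in R3 because only 5 of its bases could be counted.

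Blood group and surface proteins formed most of the other calls. Kel, the Kell antigen, was at 61.8 RPKM in R2 and 270 in R3, Rhd at 130 and 524, and Rhag, the ammonium channel of the Rh complex, at 49.4 and 101, a log2 ratio of 1.02. Icam4 was at 79.0 and 248, Art4, which carries the Dombrock antigens, at 8.34 and 38.7, and Darc, the Duffy chemokine receptor, at 4.06 and 66.9. Darc had the next highest ratio after Slc4a1, 3.75. Cd24a was at 164 RPKM in R2 and 821 in R3, and Cd59a, an inhibitor of complement, at 2.14 and 15.6. The adhesion receptor Cd44 was the lowest antigen of the surface and transport list, at 19.6 and 2.63, a log2 ratio of -2.50. Between R2 and R3, R3 was the higher library for every antigen named here other than Cd44.

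Transporters differed in both directions. The glucose transporter Slc2a1 was at 51.1, 419, 999 and 649 RPKM across R2, R3, R4 and R5, and its relative Slc2a4 at 2.03 and 23.5 in R2 and R3. The glycine transporter Slc6a9, which supplies the substrate of heme synthesis, was at 21.7 and 155, a log2 ratio of 2.78, and the glutamine carrier Slc1a5 at 73.1 and 175. The mitochondrial iron importer Slc25a37 was at 93.0, 1035, 1279 and 605 RPKM across R2, R3, R4 and R5. The large neutral amino acid carrier pair Slc7a5 and Slc3a2 had log2 ratios of 0.15 and 0.03 and was not called. The folate carrier Slc19a1 was called lower, at 52.3 and 5.56 RPKM, as was the sodium pump subunit Atp1b2, at 89.0 and 22.7. With Cd44 these were the 3 lower calls of the surface and transport list.

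Iron genes had a larger share of higher calls and a smaller share of lower ones than the 5.01% and 23.0% of all members. Of 25 members, 5 were called higher and 3 lower, with a median of -0.44 as deposited and 0.37 with median scaling. Besides Slc25a37 and Tfrc, the higher ones were Ncoa4, which delivers ferritin to the lysosome (13.3 and 35.0 RPKM), Isca1 of iron-sulfur assembly (33.7 and 87.2) and Picalm of clathrin coats (39.8 and 103). The ferritin genes Fth1 (1848 and 3621 RPKM) and Ftl1 (1467 and 2371) were not called, with log2 ratios of 0.97 and 0.69. The lower ones were the ferredoxins Fdx1 (11.6 and 1.68) and Fdx1l (46.2 and 11.7) and Aco1, the iron regulatory protein that is also an aconitase (12.8 and 2.84).

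Erythroid transcription factors differed in both directions. Of 40 members, 10 were called higher and 5 lower, against 5.01% and 23.0% of all members. Their median was 0.20 as deposited and 1.06 with median scaling. The core factors Gata1, Klf1, Zfpm1 and Lmo2 did not pass 2-fold as deposited, with log2 ratios of 0.42, 0.72, 0.45 and 0.57, but did with median scaling, at 1.29, 1.59, 1.32 and 1.44. Gata1 was at 120 RPKM in R2 and 161 in R3, Klf1 at 254 and 418, Zfpm1, the GATA1 cofactor, at 260 and 355, and Lmo2 at 107 and 159. Of the core factors named, Tal1 alone was called, at 69.3 and 156, a log2 ratio of 1.16.

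The 10 called higher included several factors outside that core. E2f2 was at 31.1, 191, 181 and 145 RPKM across R2, R3, R4 and R5, a log2 ratio of 2.58, and Sox6, a repressor of embryonic globin, at 2.99, 21.4, 22.2 and 10.3. Nfe2, a globin activator, was at 60.4 and 204 RPKM in R2 and R3, Klf3 at 27.2 and 78.3, and Foxo3, which acts in late erythroblasts on autophagy and antioxidant genes, at 28.1 and 81.7. In the lower direction were Stat5a (33.0 and 2.95), Stat5b (30.04 and 7.20), the corepressor Trim28 (258 and 52.0) and Cbfa2t3 (20.03 and 4.75). Bcl11a, a repressor of embryonic and fetal globin genes, was at 34.7 and 10.7 RPKM, with log2 ratios of -1.61 as deposited and -0.75 after median scaling, and was not called. Thra and Rxra, receptors for thyroid hormone and retinoids, were at -1.69 and -1.82 and were not called either.

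Myc and its antagonists of the MXD family differed in both directions. Myc was at 118, 15.8, 7.21 and 13.5 RPKM across R2, R3, R4 and R5, a log2 ratio of -2.83. Of the MAX partners that repress MYC targets, 2 were called higher, Mxd1 at 7.10, 39.2, 62.6 and 35.6 RPKM and Mxd3 at 10.1, 65.5, 32.7 and 39.1, with log2 ratios of 2.31 and 2.58. Mxi1 was at 9.31 and 13.2 in R2 and R3 and was not called. Mxd4 was called lower, at 10.3 and 1.60, and Max itself stood at 45.4 and 19.1, a log2 ratio of -1.21 close to the median member. R2 was therefore the high library for Myc and Mxd4, and the low one of this pair for Mxd1 and Mxd3.

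Genes that serve growth were lower in R3 beyond the shift of the median member. Of 71 ribosome biogenesis members, 61 were called lower and 0 higher, against 23.0% lower among all members, with a median of -2.37 as deposited and -1.49 with median scaling. Npm1, the nucleolar histone chaperone nucleophosmin, was at 592 RPKM in R2 and 75.7 in R3, Mybbp1a at 187 and 25.1, Rrp9 at 80.5 and 8.61, and the rRNA methyltransferase Fbl at 496 and 92.5. Ubtf, which loads RNA polymerase I on ribosomal DNA, was at 83.5 and 44.5, a log2 ratio of -0.89, the highest of the list. Of 41 nucleotide and 1-carbon members, 19 were called lower and 3 higher. Spermidine synthase (Srm) was at 342 and 39.2 RPKM and the IMP dehydrogenase Impdh1 at 25.7 and 2.56. Those higher were Rrm2, the inducible subunit of ribonucleotide reductase (128 and 291), Dck, the deoxycytidine kinase (18.1 and 41.2), and Odc1 (131 and 265), the entry enzyme of polyamine synthesis.

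Protein folding genes stood lower as well. Of 51 chaperone members, 25 were called lower and 2 higher, with a median of -1.84. Hspa8, the constitutive heat shock protein of its family, was at 2245 RPKM in R2 and 495 in R3, Hsp90ab1 at 1391 and 255, and the mitochondrial chaperonin Hspd1 at 314 and 43.4. The 2 higher were the cochaperones Dnajb2 (4.85 and 22.7) and Dnaja4 (5.29 and 21.2). Of 47 translation factor members, 7 were called lower (Eif4b at 191 and 38.9 RPKM among them) and 1 higher, a smaller share of lower calls than the 23.0% of all members. The higher one was Eif2ak1, the heme-regulated kinase HRI, which slows translation when heme is short, at 48.1, 139, 166 and 115 RPKM across R2, R3, R4 and R5. Of 22 tRNA synthetase members, 3 were called lower, and of 43 ribosomal protein members 1, with 5 of those 43 backed by under 30 reads. Their medians of -1.40 and -1.18 as deposited lay near the -1.22 of all members, as did that of 56 splicing members, at -1.33. In that splicing list the called higher gene was Rbm38, an RNA-binding protein that acts on erythroid splicing, at 212 and 683 RPKM.

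**Figure D3:**
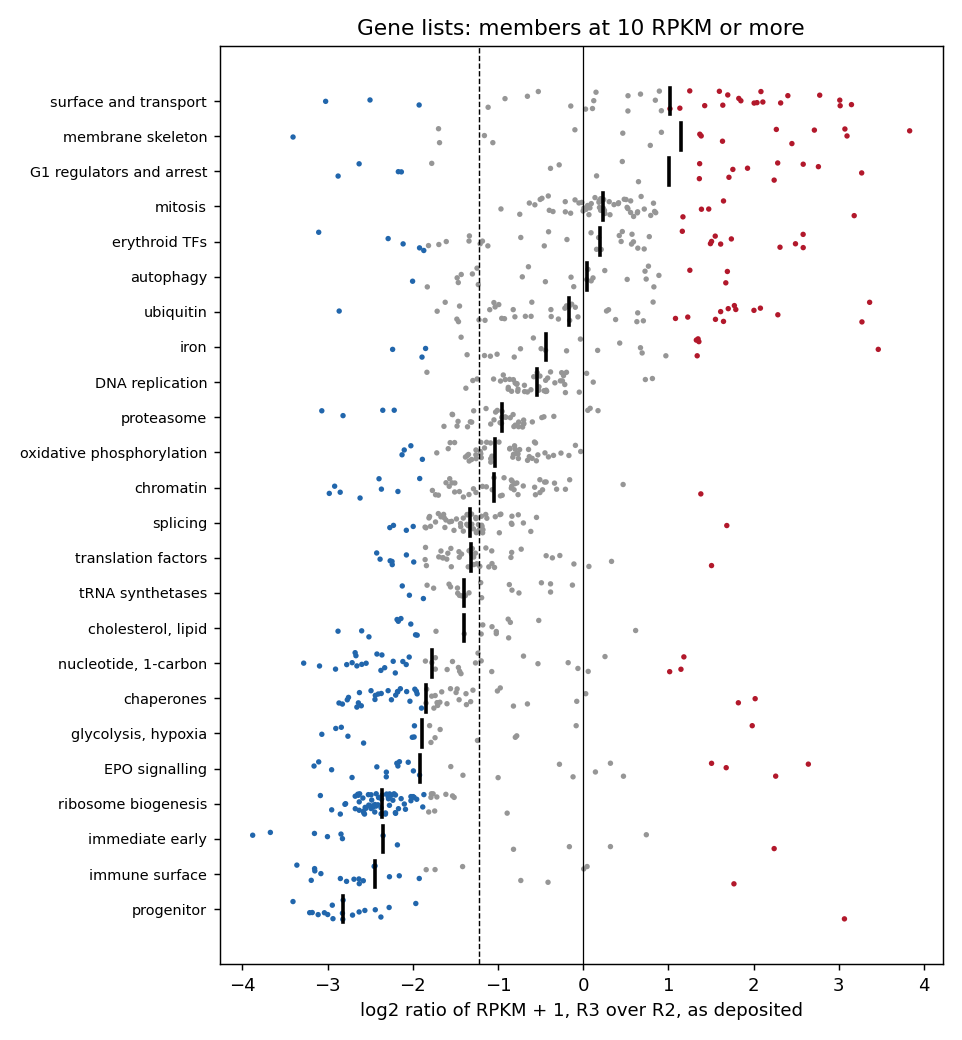
Each point is 1 member gene of a list (rows), placed by its log2 ratio of RPKM + 1 in R3 over R2 as deposited (x axis), with red and blue for genes called higher and lower under all 3 scalings and grey for the rest. The black bars are list medians, which run from 1.14 for the membrane skeleton to -2.82 for progenitor genes around the dashed line of all members at -1.22, and Gapdh of the glycolysis list, at -7.77, lies off the axis.

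Cell cycle genes did not share this drop. Of 61 mitosis members, 5 were called higher and 0 lower, against 5.01% and 23.0% of all members. Their median was 0.23 as deposited and 1.04 with median scaling. At least 2-fold higher were 35 with median scaling and 26 with globins removed, against 11.1% and 10.2% of all members. Cdc25b, the phosphatase that activates mitotic kinases, was at 30.3, 283, 262 and 197 RPKM across R2, R3, R4 and R5, a log2 ratio of 3.18. The proliferation antigen Mki67 was at 69.8 and 196 in R2 and R3, and Ube2c, which works with the anaphase-promoting complex, at 131 and 411. DNA replication genes had no call in either direction among 47 members, with a median of -0.54 as deposited and 0.30 with median scaling. The polymerase clamp Pcna was at 600 and 651 RPKM, and the helicase subunits Mcm5 and Mcm2 at 221 and 130 and at 221 and 185.

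Genes of the G1 phase and of arrest differed in both directions. Of 20 members, 10 were called higher and 4 lower, against 5.01% and 23.0% of all members, with a median of 1.01. Cyclin D2 (Ccnd2) was at 20.7 RPKM in R2 and 2.5 in R3, and its kinases Cdk6 and Cdk4 at 23.3 and 2.31 and at 252 and 56.6. Cyclin D3 (Ccnd3), the D cyclin of terminal erythroblast divisions, was at 135, 349, 115 and 128 RPKM across R2, R3, R4 and R5. The inhibitors of those kinases were higher in R3, Cdkn2d at 9.07 and 67.2 and Cdkn2c at 4.21 and 18.8, with log2 ratios of 2.76 and 1.93. Cdkn2d rested on 15 reads in R2 and 124 in R3. Cdkn1b (8.23 and 13.5) was not called. Rb1 was at 5.10 and 14.7 RPKM, the antiproliferative gene Btg2 at 10.4 and 52.7, and Gadd45a at 29.6 and 99.1. Trp53, which encodes p53, was called lower, at 122 and 26.4. The little-studied Ypel3, Ypel4 and Ypel5 were all called higher, with Ypel4 at 19.8, 199, 407 and 293 RPKM across R2, R3, R4 and R5.

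Progenitor genes were the lowest list of those with at least 10 members, with a median of -2.82. Of 19 members 18 were called lower, against 23.0% of all members. Myb was at 68.1, 5.52, 3.29 and 4.87 RPKM across R2, R3, R4 and R5, and Hmga1, a chromatin protein of dividing progenitors, at 272, 32.3, 14.6 and 34.9. Cd34 (18.0 and 1.69), Runx1 (13.4 and 2.69) and the fetal RNA-binding genes Igf2bp1 (15.1 and 2.11) and Igf2bp3 (13 and 1.58) were also called lower. The called higher member was Pdzk1ip1, at 0.72 and 13.4 RPKM. Several members also act in leukocytes, such as Sfpi1 (84.7 and 8.92), Gfi1 (14.2 and 0.90) and Irf8 (24.1 and 2.26), and beside them the granulocyte sum was 10412 RPKM in R2 and 835 in R3.

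Erythropoietin signalling genes differed member by member below the receptor. Of 25 members, 13 were called lower and 4 higher, against 23.0% and 5.01% of all members. The receptor Epor was at 144, 200, 97.0 and 109 RPKM across R2, R3, R4 and R5. It passed 2-fold with median scaling (a log2 ratio of 1.35) and with globins removed (1.24), but not as deposited (0.47). Its kinase Jak2 was at 10.1 and 11.3 in R2 and R3, and neither gene was called. Below them, besides Stat5a and Stat5b, the phosphatase Ptpn6 that shuts the receptor off was at 63.3 and 6.2, Akt1 at 112 and 27.4, the adaptor Sh2b3 at 29.0 and 5.59, and the kinase Lyn at 14.5 and 2.12. The adaptors Gab1 (10.8 and 8.71) and Grb2 (47.3 and 17.2) were not called. The called higher genes were the survival gene Bcl2l1 at 18.2, 119, 338 and 263 RPKM across R2, R3, R4 and R5, the kinase gene Pim1 at 59.2, 192, 283 and 232, and the feedback inhibitor Socs3 at 1.61, 11.5, 9.27 and 11.6. The fourth was Foxo3. Other response genes of the list were called lower, among them Id1 (23.3 and 4.46 RPKM in R2 and R3) and the phosphatase gene Dusp2 (10.9 and 0.82). Ptpn6, Lyn and the kinase subunit gene Pik3cd (27.3 and 2.66) are also active in leukocytes.

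In the apoptosis list of 14 members Bcl2l1 was the called higher gene. Bid (26.9 RPKM in R2 and 3.33 in R3) and Bak1 (61.5 and 12.95), which promote release of cytochrome c, were called lower. Bax was at 95.4 and 36.1, a log2 ratio of -1.38 near the median member. Mcl1, another survival gene, was at 37.0 and 34.9.

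Genes of proteolysis were higher in part. Of 49 ubiquitin members, 13 were called higher and 1 lower, against 5.01% higher and 23.0% lower among all members. The ligase gene Trim10 was at 28, 297, 465 and 275 RPKM across R2, R3, R4 and R5, Ube2l6, an E2 enzyme for ubiquitin and ISG15, at 35.1, 347, 514 and 343, and Ube2o, a quality control enzyme that removes ribosomes from reticulocytes, at 24.7, 124, 297 and 185. The lower one was Ube2e1, at 49.7 and 5.97 in R2 and R3. Of 27 autophagy members 3 were called higher and 1 lower, against the same shares of all members. The 3 belong to the ATG8 conjugation system: the proteases Atg4d (33.5 and 109) and Atg4a (2.56 and 10.5) and their substrate Gabarapl2 (40.1 and 96.8). Gabarapl2 rested on 46 reads in R2 and 124 in R3. Gabarap of the same system (49.2 and 51.2) was not called. Atg3, the E2-like enzyme of the same system, was called lower, at 13.1 and 2.51. Among 41 proteasome members 4 were called lower and 0 higher, with a median of -0.96. These included all of the immunoproteasome subunits Psmb8 (25.2 and 2.13), Psmb9 (14.5 and 2.04) and Psmb10 (78.7 and 10.3), which immune cells use for antigen processing, while Psmc3 was at 192 and 118 and not called.

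Central metabolism was lower at the steps of glycolysis and lipid synthesis. Of 18 glycolysis and hypoxia members, 9 were called lower and 1 higher, against 23.0% and 5.01% of all members. Gapdh was counted among the lower ones on 5 reads in R2 and listed at 0 in R3. The M-type pyruvate kinase Pkm2 was at 329 RPKM in R2 and 38.4 in R3, whereas Pklr, the pyruvate kinase of red cells, was at 274 and 258. Hexokinase 2 (Hk2) was at 15.8 and 1.24 and Aldoa at 569 and 94.5. The higher gene was Bpgm, which makes the 2,3-bisphosphoglycerate that loosens oxygen from hemoglobin, at 15.0, 62.4, 194 and 134 RPKM across R2, R3, R4 and R5. Of 21 cholesterol and lipid members 9 were called lower and 0 higher, among them Fasn (67.0 and 8.26), the desaturase Scd2 (109 and 17.1) and Srebf1 (83.9 and 17.7), which drives fatty acid synthesis. Srebf2, its counterpart for cholesterol genes, was at 47.3 and 32.7 and was not called. Of 30 antioxidant members 3 were called higher and 6 lower, near the 5.01% and 23.0% of all members. Peroxiredoxin 2 (Prdx2), abundant in red cells, was at 510 and 1455 RPKM and Gpx1 at 1720 and 5061, while Prdx5 was at 129 and 21.6 and the pentose phosphate enzyme Pgd at 194 and 27.6. Carbonic anhydrase 2 (Car2) was at 365 and 1387, a log2 ratio of 1.92.

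Mitochondrial lists had no higher calls, against 5.01% of all members, and are read against 23.0% lower and a median of -1.22. Of 52 oxidative phosphorylation members 4 were called lower and 0 higher (median -1.03), of 52 mitochondrial ribosome members 12 and 0 (median -1.58), and of 29 import and biogenesis members 13 and 0 (median -1.65). The last held both prohibitins, Phb (42.6 and 6.41 RPKM) and Phb2 (424 and 96.0), and the import receptor Tomm20 (238 and 57.9).

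Nuclear lists had smaller shares of calls than the 23.0% lower and 5.01% higher of all members, with single large differences. Of 52 nuclear transport and envelope members 7 were called lower and 1 higher. The higher gene was Xpo7, an exportin needed for chromatin condensation in erythroblasts, at 5.17, 30.1, 146 and 53.4 RPKM across R2, R3, R4 and R5. Lmnb2, a B-type lamin, was at 36.5 and 5.19 in R2 and R3, while Lmna was at 123 and 179. Of 51 chromatin members 8 were called lower and 1 higher. The acetyltransferase Kat2a was at 50.6 and 5.54, the histone variant macroH2A gene H2afy at 173 and 22.0 and the methyltransferase Ehmt2 at 81.0 and 10.4. The replacement histone gene H3f3a was the higher one, at 245 and 639.

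Among called genes with 30 or more reads in R2 or R3, the lowest ratio was that of Jun. Jun and Fos, the partners in the AP-1 factor, were at 44.6 and 2.10 RPKM and at 34.7 and 1.80, log2 ratios of -3.88 and -3.67. Of 13 immediate early members 8 were called lower and 1, Btg2, higher, against 23.0% and 5.01% of all members. Jund was at 63.2 and 35.4 and was not called. Next to Jun and Fos stood Hdc, the histamine-forming enzyme of basophils and mast cells (45.4 and 2.25), Card9, a myeloid adaptor (34.3 and 1.68), Cmtm7 (133 and 9.50), Palm (35.3 and 1.87), Bmyc (17.5 and 0.58) and Nkg7, a granule gene of cytotoxic cells (24.8 and 1.22). Srgn, the proteoglycan core of secretory granules, was at 116 and 9.73, and the myeloid kinase Fes at 49.4 and 3.83. Of 24 immune surface members 16 were called lower and 1 higher, against the same shares of all members. The higher one was the tetraspanin Cd82 (36.2 and 126), while Cd63 of the same family was at 49.2 and 3.89. The granulocyte sum of 10412 RPKM in R2 and 835 in R3 stands beside these genes, and its part in them was not tested.

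**Figure D4:**
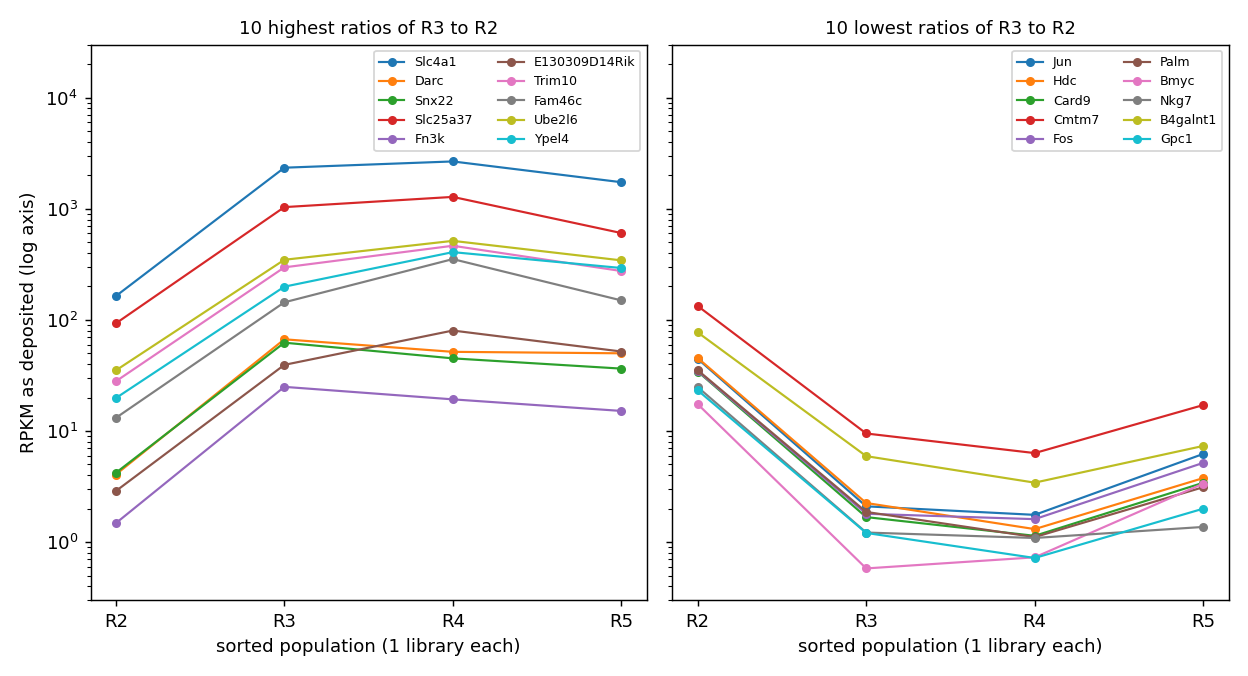
Lines give the RPKM as deposited (y axis, log scale) of single genes in R2, R3, R4 and R5 (x axis, 1 library each), on the left for the 10 highest and on the right for the 10 lowest ratios of R3 to R2 among called genes with 30 or more reads. On the left Slc4a1 goes from 164 RPKM in R2 to 2342 in R3 and stays at 1734 in R5, and on the right Jun goes from 44.6 to 2.10 and stands at 6.22 in R5.

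Among the 25 highest ratios were also genes with less known roles in red cells. Snx22, a sorting nexin, was at 4.2, 62.4, 45.1 and 36.4 RPKM across R2, R3, R4 and R5, a log2 ratio of 3.61. Fn3k, which removes sugar from glycated proteins, was at 1.48, 24.97, 19.3 and 15.2. Tmcc2, a transmembrane coiled-coil protein, was at 52.8, 503, 1776 and 991, and Fam46c, a poly(A) polymerase, at 13.1, 144, 352 and 150. The adrenergic receptor gene Adra2b (2.57 and 28.7 in R2 and R3), the lysyl oxidase relative Loxl2 (2.53 and 29.0), Tinagl1 (3.49 and 36.9), Dok4 (2.62 and 29.0) and the formin relative Fhdc1 (4.55 and 47.9) were near or under 5 RPKM in R2. Tmcc2 and Fam46c were highest in R4 and Snx22 and Fn3k in R3.

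Promoter sequence was set beside these groups, with RefSeq promoters of build GRCm38.p6 that run from 250 bases before to 50 after the start of the gene. The values themselves come from build mm9 and were matched by symbol, for 4435 of the 5464 members, with the promoter listed first for each gene. Both strands were searched, and matches of different motifs were counted separately even where they overlap. A match to a GATA factor motif (AGATAA or AGATAG, and likewise TGATAA or TGATAG) was found in 26.1% of 218 promoters of genes called higher, 18.3% of 998 called lower, 17.7% of all members and 30.2% of all 27025 promoters in the table. The KLF1 motif (CCACACCC or CCACCCC) was found in 25.7%, 23.1%, 20.1% and 17.7% of the same sets. For surface and transport genes the shares were 39.3% for GATA and 50% for KLF1 over 28 promoters.

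The E-box bound by MYC (CACGTG) was found in 7.80% of promoters of genes called higher, 17.1% of those called lower, 11.9% of all members and 7.24% of all promoters. For ribosome biogenesis genes it was 20.6% of 63 promoters. Shares were as high or higher for tRNA synthetases (26.7% of 15), G1 and arrest genes (23.5% of 17) and progenitor genes (21.4% of 14). They were lower than 20.6% in the other lists searched. The cell cycle homology region (CHR, TTTGAA), bound by the DREAM complex in mitotic genes, was found in 72.5% of 51 mitosis promoters, 15.4% of 39 DNA replication promoters, 11.7% of all members and 18.1% of all promoters. The E2F motif (TTTCCCGC, TTTCGCGC, TTTGCCGC or TTTGGCGC) was found in 9.80% of mitosis, 30.8% of DNA replication, 5.23% of member and 2.32% of all promoters. CCAAT, the box bound by NF-Y, was found in 72.5%, 61.5%, 40.7% and 37.9% of the same sets. It was also found in 70.6% of G1 and arrest promoters and 60.0% of tRNA synthetase promoters, and in 28.6% to 58.3% in the other lists searched. These shares describe letters in a window and not bound sites.

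**Figure D5:**
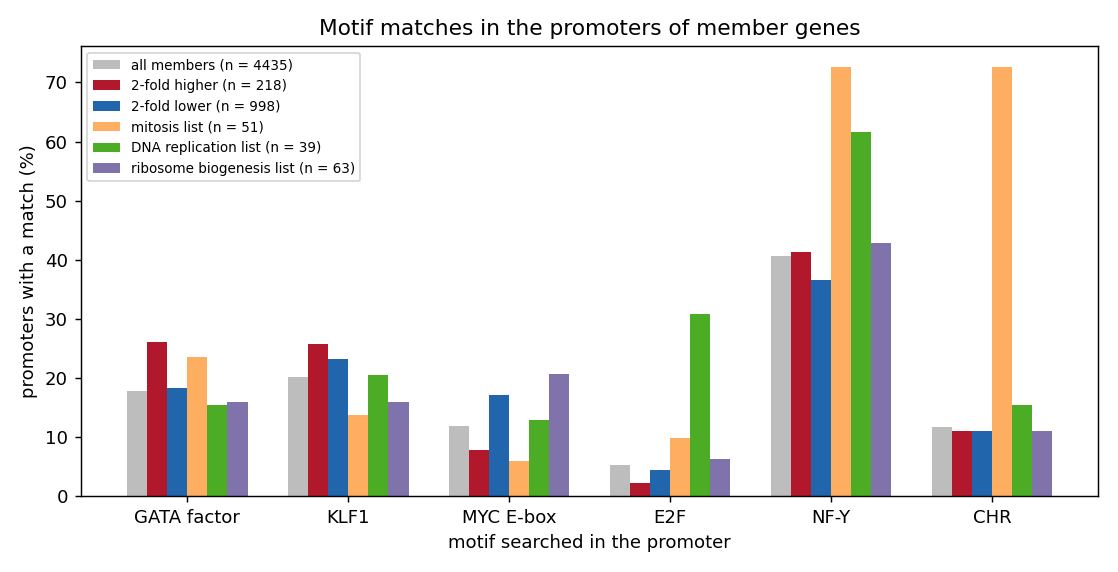
Bars give the share of promoters with at least 1 match (y axis, percent, from 0) for each of 6 motifs (x axis) in 6 sets of member genes, with the number of promoters in the legend. The CHR motif stands at 72.5% in the mitosis list against 11.7% in all members, and the MYC E-box at 17.1% in genes called lower against 7.80% in genes called higher.

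Genes were eligible with a match at least 25 bases inside the region before the start. Those of a single chromosome were passed over. The stretches below show where such matches lie in the highest ranked eligible genes of each group. They are written 5′ to 3′ on the strand of the gene, with 25 bases on each side of the match and the match to the named motif in capitals. For GATA they come from 3 of the genes with the highest ratios, Snx22 (chr9:66069894-66069949, minus strand), Trim10 (chr17:36869386-36869441, plus strand) and Butr1, now named Btnl10 (chr11:58917705-58917760, plus strand), a butyrophilin relative at 5.86 RPKM in R2 and 54.9 in R3.
Snx22: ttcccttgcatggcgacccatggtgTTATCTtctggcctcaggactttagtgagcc
Trim10: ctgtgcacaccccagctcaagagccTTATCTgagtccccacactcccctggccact
Butr1: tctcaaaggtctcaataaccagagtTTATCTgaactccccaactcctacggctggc

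The last bases of the promoter window were found in an annotated transcript for every gene shown here other than Snx22, so its start is less certain. All 3 carry the match on the opposite strand, and their last matches begin 165, 163 and 178 bases before the start. For the KLF1 motif the same rule gave Trim10 again (chr17:36869477-36869533, plus strand), Ube2l6 (chr2:84798752-84798808, plus strand) and Ypel4 (chr2:84734009-84734065, plus strand).
Trim10: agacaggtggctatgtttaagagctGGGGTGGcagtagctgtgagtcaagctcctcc
Ube2l6: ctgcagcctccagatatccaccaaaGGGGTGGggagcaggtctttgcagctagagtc
Ypel4: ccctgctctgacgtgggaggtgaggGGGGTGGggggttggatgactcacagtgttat

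For the E-box the stretches come from the eligible ribosome biogenesis genes called lower that have such a match, taken by highest mean level among those alone. They are Exosc5 (chr7:25659084-25659139, plus strand), Nop2 (chr6:125131798-125131853, plus strand) and Imp4 (chr1:34439683-34439738, plus strand). More abundant genes of the list, such as Npm1 and Fbl, are not among them. Exosc5 is a subunit of the RNA exosome, Nop2 an rRNA methyltransferase and Imp4 a part of the small subunit processome. These were picked for their level and motif and lie outside the rule for named genes. Exosc5 was at 114 RPKM in R2 and 19.7 in R3, Nop2 at 73.8 and 10.7, and Imp4 at 54.5 and 11.3.
Exosc5: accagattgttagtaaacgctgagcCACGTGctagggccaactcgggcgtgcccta
Nop2: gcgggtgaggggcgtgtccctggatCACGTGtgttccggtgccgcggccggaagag
Imp4: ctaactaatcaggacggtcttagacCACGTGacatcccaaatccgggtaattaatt

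For CHR they come from the mitosis genes, called or not, with the highest ratios among the eligible ones that have such a match. These are Mki67 (chr7:135716447-135716502, minus strand), where 2 matches fall in the stretch, Ccnb2 (chr9:70421691-70421746, minus strand) and Cdc2a, now named Cdk1 (chr10:69352953-69353008, minus strand). Ccnb2, which encodes cyclin B2, and Cdc2a, the kinase it activates, were not called and also lie outside the rule for named genes. They were at 76.2 and 113 RPKM and at 22.7 and 27.3 in R2 and R3.
Mki67: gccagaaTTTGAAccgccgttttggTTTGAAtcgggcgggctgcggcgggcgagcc
Ccnb2: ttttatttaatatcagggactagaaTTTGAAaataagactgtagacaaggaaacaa
Cdc2a: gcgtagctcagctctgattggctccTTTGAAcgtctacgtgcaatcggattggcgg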

How the data were processed

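RNA was sequenced from 4 sorted populations, R2 to R5, with 1 library each, from total RNA enriched for polyA, per the labels' protocols. The authors deposited 1 RPKM value per gene symbol and library. The reads were placed on mouse build mm9, per the submitters' processing notes, while the aligner, the counter and the annotation are each not given in the sources.

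Ratios of R3 to R2 were computed from the deposited RPKM as log2 with a pseudocount of 1, for genes at 10 RPKM or more in either library outside the globin, heme and granulocyte lists. They were recomputed with globin genes removed and with median-ratio factors over 2745 genes at 5 RPKM or more in all 4 libraries. A call means at least 2-fold in the same direction under all 3 scalings. Single libraries allow no test, so no p-value is given. Since both rescalings raise the ratios, the higher calls equal those made as deposited and the lower calls those made with median scaling.

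Depth was estimated by taking the smallest nonzero value of 6 multi-copy genes with very few countable bases as 1 read over 1 base. Reads could be estimated for 5406 members. Reads without molecular identifiers are not independent molecules.

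Genes are named by rule: the 25 highest and 25 lowest ratios among called genes with 30 or more estimated reads in R2 or R3, the most abundant and most extreme genes of each of 41 lists, the members of the lists for the membrane, surface, transcription factors, progenitors, signalling, G1, iron, apoptosis and stage, and the genes at the 10 RPKM edge. The members and lists were chosen with earlier results of these data known. Of the list entries 1589 matched by symbol, 10 by an alternative symbol and 23 by a RefSeq synonym, 4 repeated an earlier entry and 34 did not match. The steps were tested on simulated data and run in Python 3.11.15 with numpy 2.4.6, pandas 2.3.3 and matplotlib 3.10.9. Alternatives changed the scaling, the pseudocount, the minimum level and the genes left out. Results for some genes are not reported here.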

Additional observations from a re-analysis of the deposited data

How the results depend on the processing

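The number of libraries limits every value, since 1 library per population leaves the spread between samples unknown. No paired analysis was possible because each population had 1 library, and for the same reason no replicate could be left out. The count of members at least 2-fold higher was 274 as deposited, 606 after median scaling and 558 without globins. The count at least 2-fold lower was 3295 as deposited, 1257 with median scaling, 1470 with globins removed, 2152 with a minimum of 20 RPKM and 5397 with no minimum, and the last 2 test fewer and more genes. The median log2 ratio of members was -1.22 as deposited, -0.38 after median scaling, -0.49 without globins, -1.29 with a pseudocount of 0.1, -0.98 with one of 5, -1.24 with a minimum of 20 RPKM, -0.60 with no minimum and -1.23 with the globin, heme and granulocyte genes kept. The count lower under all 3 scalings was 1257, against 528 with a pseudocount of 5 and 817 with a minimum of 20 RPKM. A larger pseudocount shrinks ratios by construction. The same count in the higher direction stayed within 215 to 358. Leaving out markers of other cell types as well was chosen after seeing the data. The signs of named genes past 2-fold are no check, since these settings could not change them. An equal pseudocount in both libraries keeps the sign of a ratio. Both rescalings raise R3 against R2 by less than 2-fold.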

Other observations

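Among the deposited gene symbols, 29 are bare numbers, of the kind a spreadsheet makes from month-like gene names. The gene listed as 40605 was at 10.2, 53.3, 101 and 77.2 RPKM across R2, R3, R4 and R5 and was called higher. It was singled out after its values were seen, and no gene name is given for it here.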
